A study of Mus musculus with 6 samples.

Results

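The genes described here encode enzymes that add or remove methyl groups on histone lysines, and enzymes that remove acetyl groups. They were taken as every row of the deposited gene table whose symbol begins with Kmt, Kdm, Hdac, Sirt or Setd followed by a digit, apart from the Y-linked Kdm5d. The rule found 54 of 31838 rows: 8 Kmt, 8 Setd, 19 Kdm, 12 Hdac and 7 Sirt genes. Of these, 51 are protein-coding, and the others are the pseudogenes Hdac1-ps and Kdm4dl and the antisense transcript Kdm6bos. All 54 passed the filter on low counts and were among the 20428 genes tested. The rule rests on symbols, so it takes in SET-domain proteins whose main substrate is not a histone (Setd3 and Setd6, for example) and leaves out histone methyltransferases with other names, such as Ezh2 and Ehmt1.

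Polyadenylated RNA from the hippocampus of wild type C57BL/6 mice aged 4 months was sequenced. The control group received corn oil (3 libraries), and the treated group received 50 mg/kg/day of BBP, butyl benzyl phthalate, a plasticiser (3 libraries). The labels do not state the route, the length of treatment or whether the treated mice also received corn oil, and they do not say that each library is a separate animal. The p-values therefore measure the spread between these libraries, which may be technical in part.

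Methyl groups on histone tails mark the state of a gene. H3K4 methylation, laid down by KMT2 and SETD1 proteins within COMPASS complexes, marks enhancers and active promoters, H3K36 methylation marks transcribed gene bodies, and H3K9, H3K27 and H4K20 methylation mark silent or compacted chromatin. Lysine demethylases (KDM) remove these marks, and histone deacetylases (HDAC, zinc-dependent) and sirtuins (NAD-dependent) remove acetyl groups. HDAC1, HDAC2 and HDAC3 do so as parts of corepressor complexes. In the hippocampus, deacetylases such as HDAC2 and methyltransferases such as KMT2A and KMT2B are known for their part in memory formation.

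The libraries held 62477604 to 68422361 deposited estimated counts each. No marker of the 11 cell type and region lists was at 0 in any library, and the hippocampal markers Prox1 (dentate gyrus), Fibcd1 (CA1) and Bok (CA2 and CA3) were at least at 3.71, 11.7 and 18.5 FPKM, a fragment count scaled to transcript length and library depth, in all 6 libraries. Each of these lowest values was in BBP library 1. Bok stood at 18.5, 18.9 and 31.2 FPKM in BBP libraries 1 to 3 and at 27.3 to 36.6 FPKM in corn oil. A pair of treated libraries stood apart. In BBP library 1 the 9 striatum markers summed to 113 FPKM, against 30.2 to 48.8 FPKM elsewhere. The 6 isocortex markers summed to 101 FPKM there against 44.8 to 51.1. Lamp5 made up most of that isocortex sum, at 64.5 FPKM against 14.6 to 20.7 elsewhere. Rorb, Cux2 and Rasgrf2 were also highest in BBP library 1, while Fezf2 (11.1 FPKM) and Tshz2 (4.16 FPKM) were lowest there. Relative to the corn oil mean (log2), the medians there were -1.03 for the 6 dentate markers and -0.96 for the CA2 and CA3 markers. Pdzd2 (dentate) and Pcp4 (CA2 and CA3) were instead highest there. The mitochondrial share of the counts was 11.5% in BBP library 2 and between 7.11% and 8.57% elsewhere. Among the controls, the choroid plexus markers summed to 371 FPKM in corn oil library 3 and to 48.9 to 120 elsewhere. Ttr alone gave 366 FPKM of the sum in corn oil library 3. Because these are bulk samples, fewer cells of a type and less RNA per cell cannot be told apart.

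Promoter sequence from RefSeq (GRCm38.p6) was found for 40 of the 54 genes. The 250 bases before the start site are shown for 3 of them as examples. These are Kmt2a and Kdm6a, whose BBP values all lay above the corn oil values, and Hdac2, whose BBP values all lay below. The window of Kmt2a is chr9:44881290-44881539 on the minus strand, that of Hdac2 is chr10:36974294-36974543 on the plus strand and that of Kdm6a is chrX:18162325-18162574 on the plus strand. Capitals mark the GC box GGGCGG on either strand.
Kmt2a: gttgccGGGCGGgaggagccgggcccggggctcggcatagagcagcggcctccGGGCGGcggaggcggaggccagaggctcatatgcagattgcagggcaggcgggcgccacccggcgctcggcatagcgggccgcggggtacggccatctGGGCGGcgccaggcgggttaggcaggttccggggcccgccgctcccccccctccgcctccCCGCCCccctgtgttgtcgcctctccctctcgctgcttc
Hdac2: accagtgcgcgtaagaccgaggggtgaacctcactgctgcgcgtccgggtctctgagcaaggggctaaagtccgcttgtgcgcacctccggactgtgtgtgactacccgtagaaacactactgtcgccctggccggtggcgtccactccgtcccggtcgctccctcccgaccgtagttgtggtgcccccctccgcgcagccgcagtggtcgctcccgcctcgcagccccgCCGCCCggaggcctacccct
Kdm6a: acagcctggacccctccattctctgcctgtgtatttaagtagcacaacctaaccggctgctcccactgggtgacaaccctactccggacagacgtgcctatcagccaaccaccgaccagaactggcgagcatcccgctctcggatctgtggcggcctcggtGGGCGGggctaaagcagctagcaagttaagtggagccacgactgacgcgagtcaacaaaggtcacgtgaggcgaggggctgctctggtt
The Kmt2a window holds 29 CpG dinucleotides and 4 GC boxes, the Hdac2 window 27 and 1, and the Kdm6a window 15 and 1. Windows not shown, of other genes whose groups did not overlap, were not all alike. Hdac11 had 17 and 1, Sirt2 13 and 1, Setd1a 25 and 0, and Setd5 0 and 0. For each gene the window with the most CpG was taken. The median of these was 20 CpG over the 40 genes, against 6 over all 27025 genes with a window. A GC box was in at least 1 window of 67.5% of the 40 genes, against 35.4% of all genes. These 27025 genes were not limited to the genes tested here, so the contrast is not one with expressed genes. The letters CCGGAAGT, an ETS motif, were in the windows of 3 genes (7.5%, against 3.23% of all genes), and the cAMP response element TGACGTCA was in 0 of 40 (1.77% of all genes), both searched on either strand and apart from the other motifs, so that 1 base could count in more than 1. These matches describe the letters only, and the gene with the highest log2 fold change in BBP, Kmt2e, is not among the 40.

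Hdac11, the only class IV deacetylase, had the highest level per transcript length of all 54 genes, with a mean of 43.4 FPKM over the 6 libraries. Sirt2, at 23.8 FPKM, and Setd3, at 22.6 FPKM, came next, followed by the class I deacetylases Hdac3 (19.99 FPKM) and Hdac2 (18.1 FPKM) and the class IIa deacetylase Hdac5 (16.0 FPKM). Most of the methylating enzymes were at lower levels. The Kmt genes ranged from 3.04 FPKM for Kmt2c to 8.30 for Kmt5a, which encodes the H4K20 monomethyltransferase, and the protein-coding Kdm genes from 0.234 for Kdm4d to 11.8 for Kdm4b. The Sirt genes ranged down to 1.34 FPKM for Sirt5 and the protein-coding Hdac genes down to 2.15 for Hdac9. Kdm4d, Kdm4dl (0.2999 FPKM) and Kdm6bos (0.312 FPKM) were the only genes of the 54 below 1 FPKM on average, and Hdac1-ps stood at 1.18.

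**Figure D1:**
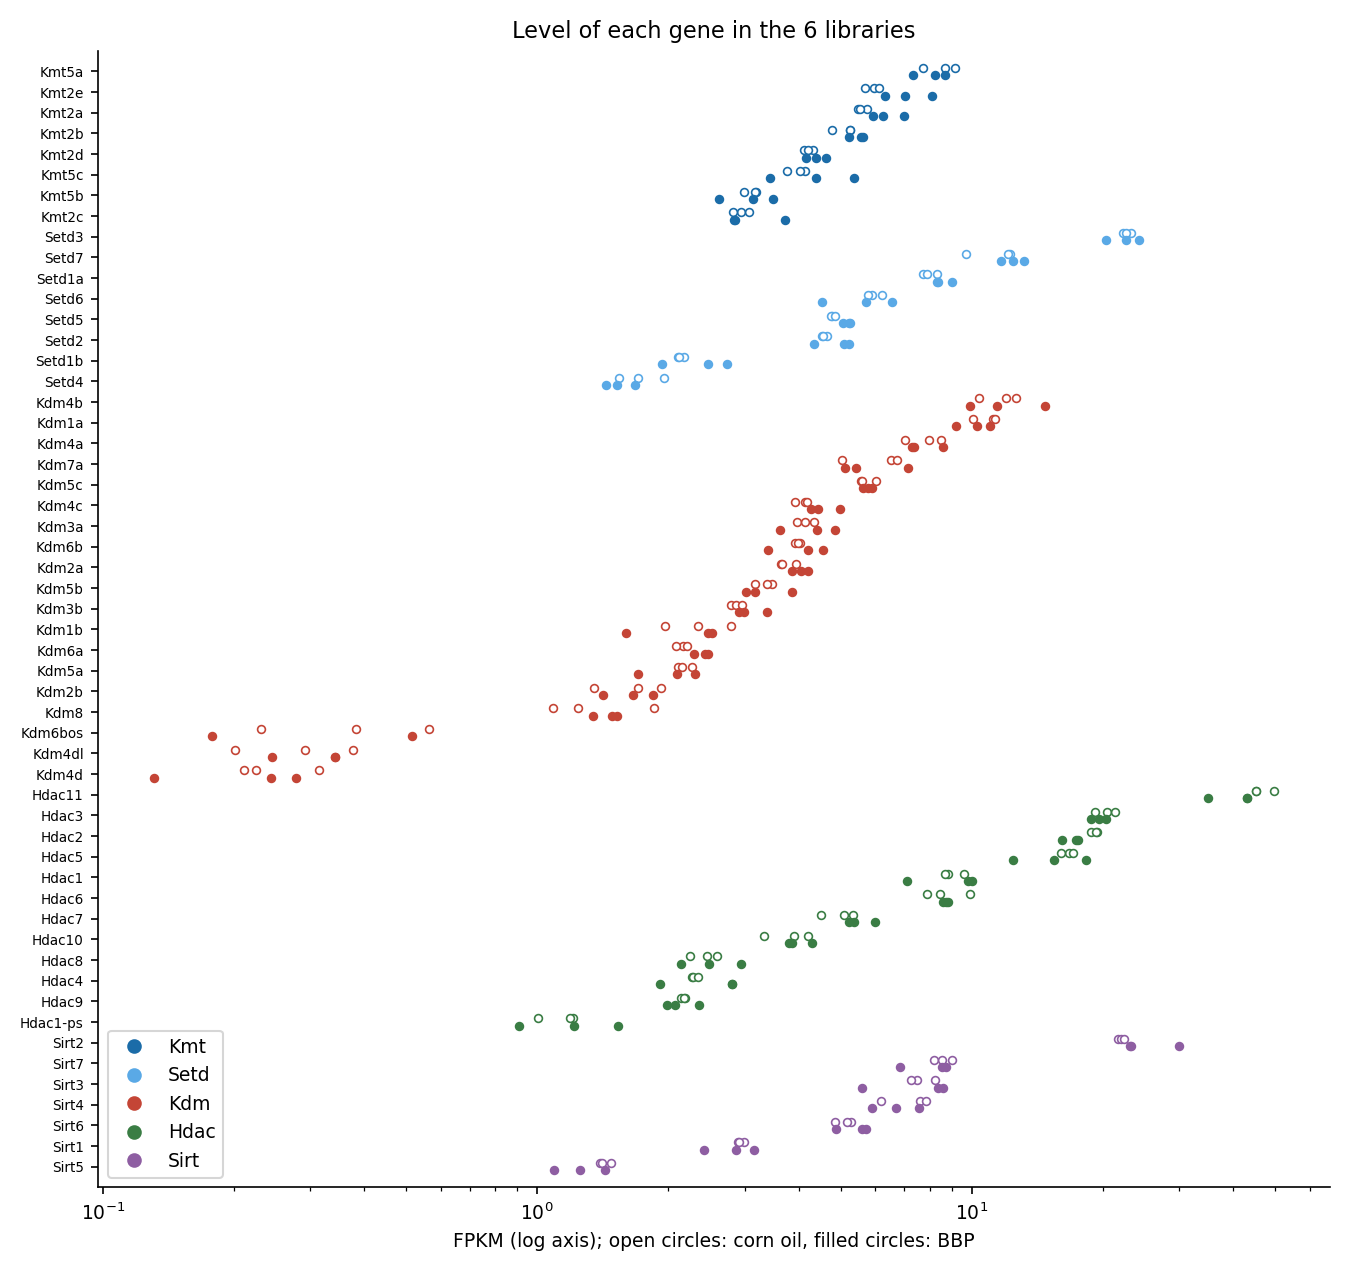
FPKM of each of the 54 genes in the 6 libraries on a log axis, grouped by family and ordered by mean level, with open circles for corn oil and filled circles for BBP. Hdac11 lies highest at 34.9 to 49.6 FPKM, and the value of 0 of Kdm6bos in BBP library 2 cannot be drawn.

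None of the 54 genes passed the test between BBP and corn oil (edgeR's quasi-likelihood test, smallest Benjamini-Hochberg adjusted p = 0.953), as none of the 20428 tested genes did (0%). DESeq2 called 3 of 31820 genes at that threshold, with none of the 54 among them, and gave Kmt2a and Kmt2e an unadjusted p under 0.05 as edgeR did. At an unadjusted p under 0.05, 2 of the 54 genes were higher in BBP, Kmt2a and Kmt2e, and 0 were lower, beside 1.98% of all tested genes higher and 1.37% lower. Of the 54 log2 fold changes 36 (66.7%) were above 0 and their median was 0.04, while 52.4% of all tested genes were above 0 and the median was 0.01. The 3 BBP values in FPKM lay above all 3 corn oil values for 7 of the 54 genes (13.0%), beside 4.4% of all tested genes, and below them for 2 (3.7%), beside 5.25%. These genes vary together across libraries and are not independent of each other, so the shares are a description.

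**Figure D2:**
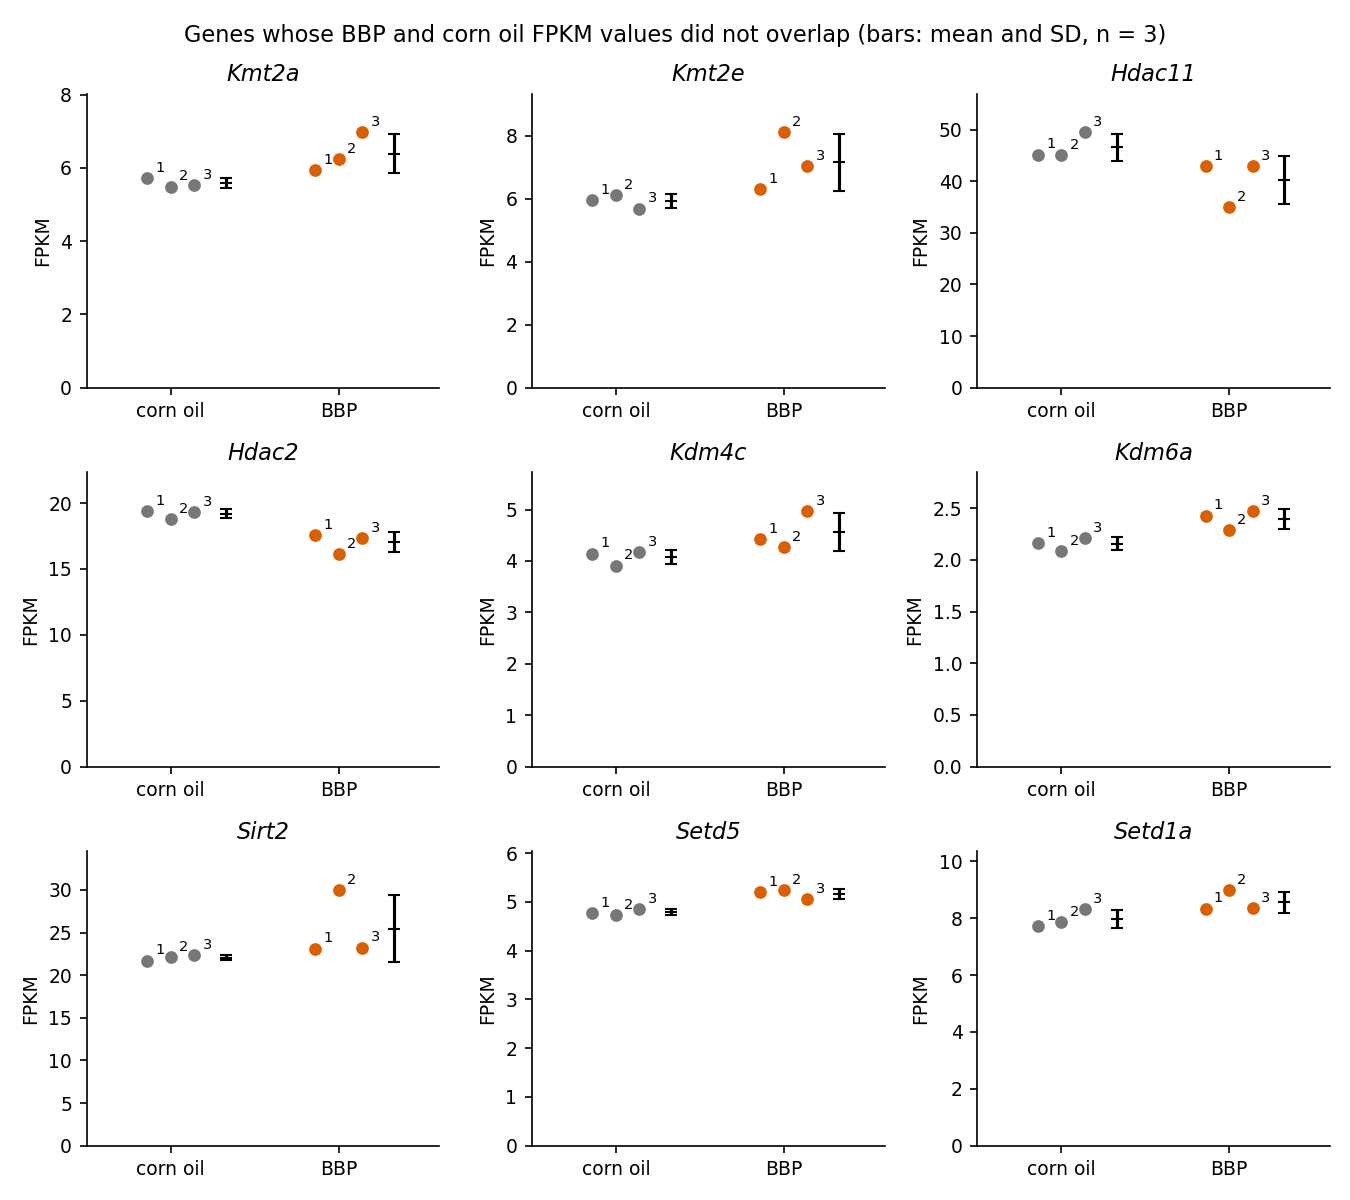
FPKM in each library (numbered points) with mean and SD (n = 3) for the 9 genes whose BBP and corn oil values did not overlap. Kmt2a, Kmt2e, Kdm4c, Kdm6a, Sirt2, Setd5 and Setd1a lie higher in BBP, and Hdac11 and Hdac2 lower. None of the 9 passed the test over all genes.

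Most differences were bounded closely. For 47 of the 54 genes (87.0%) the whole 95% interval stayed inside 1.5-fold, up or down, as it did for 50.4% of all tested genes. On the log2 scale the standard error had a median of 0.109 over the 54 genes. The 7 genes whose interval reached further were Kmt2e, Kmt5c, Kdm8, Kdm4d, Hdac1-ps, Kdm4dl and Kdm6bos. Kdm6bos had 11, 0 and 32 deposited counts in BBP libraries 1 to 3 and 23, 34 and 15 in corn oil, and its interval ran from 0.12-fold to 2.87-fold. The intervals of Kmt2e, Kmt5c, Kdm8 and Hdac1-ps left the 1.5-fold band on the higher side only.

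**Figure D3:**
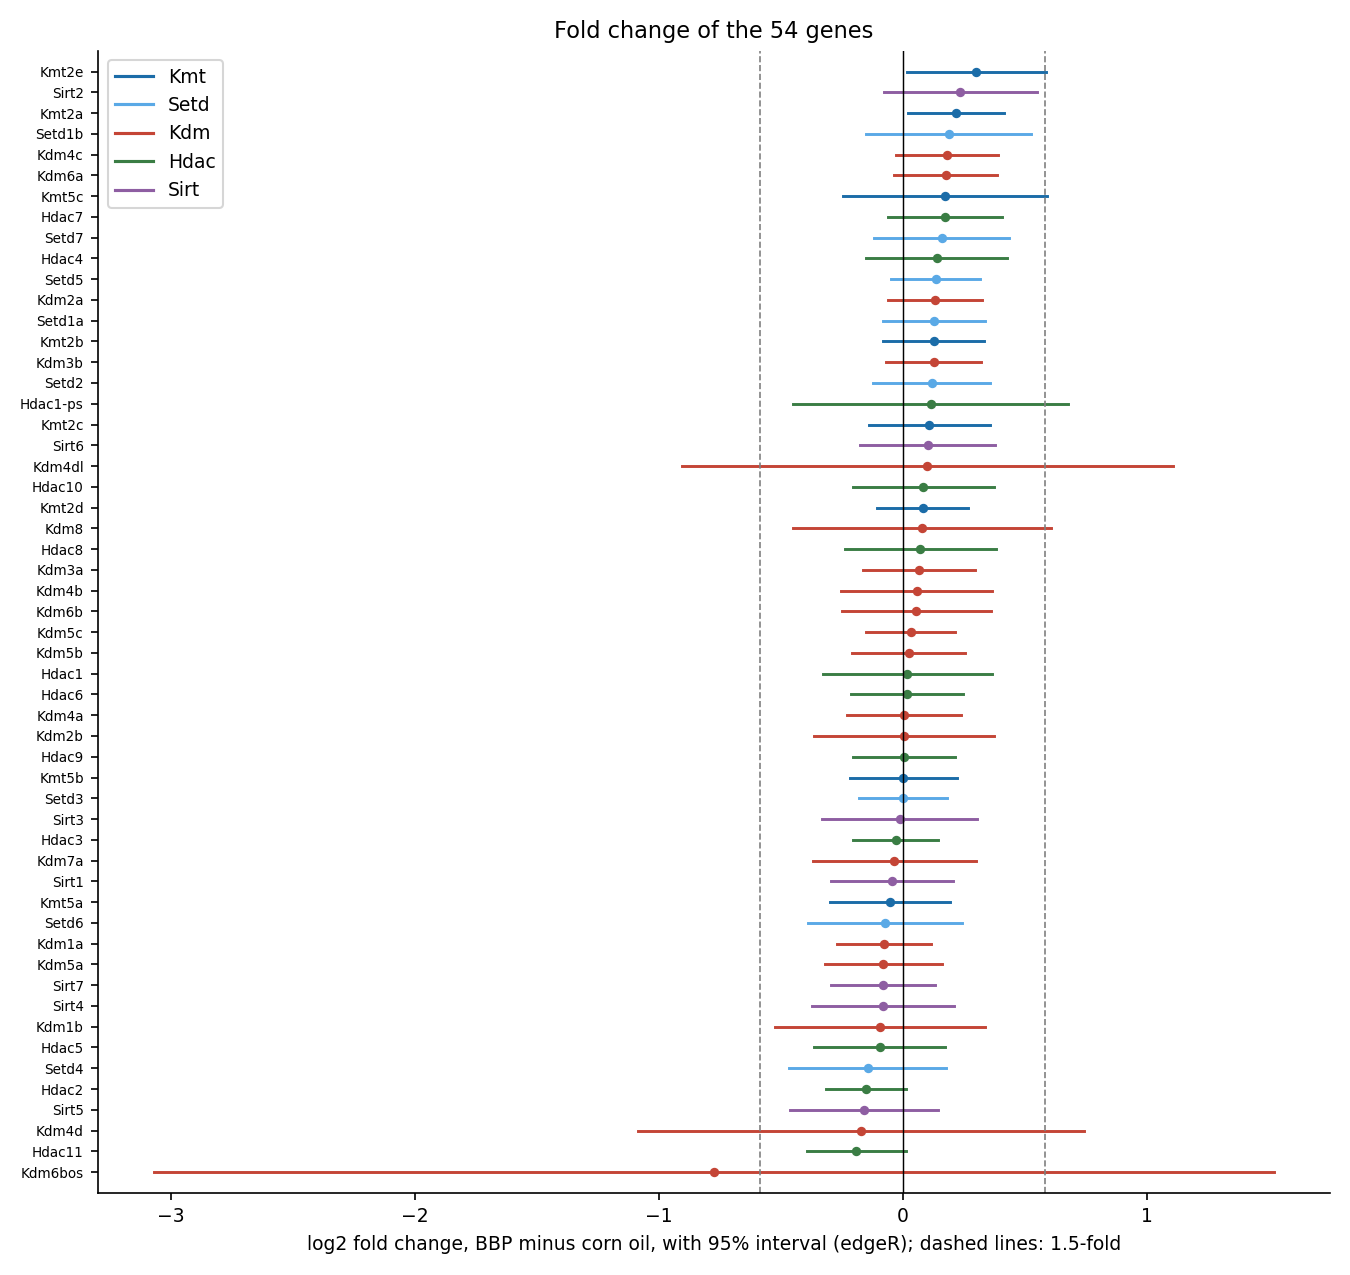
Log2 fold change (BBP minus corn oil) with its 95% interval for each of the 54 genes, coloured by family, with dashed lines at 1.5-fold. The intervals of 47 genes lie between the dashed lines, and only those of Kmt2a and Kmt2e leave out 0, though neither gene passed the test adjusted over all genes.

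Kmt2a encodes the founding H3K4 methyltransferase of the MLL family and spans chromosome 9, 44803355 to 44881296 (mm10, minus strand). Its level was 5.73, 5.48 and 5.53 FPKM in corn oil libraries 1 to 3 and 5.94, 6.25 and 6.98 in BBP libraries 1 to 3. All BBP values lay above all corn oil values, with BBP library 3 the highest. The log2 fold change was 0.22 ± 0.09 (SE, edgeR unadjusted p = 0.0343, adjusted p = 0.953).

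Kmt2e, on chromosome 5 (23434441 to 23504235, plus strand), encodes an MLL-family protein whose SET domain is regarded as inactive and whose PHD finger binds methylated H3K4. Its level was 5.95, 6.11 and 5.68 FPKM in corn oil and 6.30, 8.12 and 7.02 FPKM in BBP libraries 1 to 3. BBP library 2 stood highest, while BBP library 1 lay close to the corn oil values. The log2 fold change was 0.30 ± 0.12 (SE, edgeR unadjusted p = 0.0403, adjusted p = 0.953), and it was 0.15 without BBP library 2. The annotated span of Kmt2e overlaps that of the gene Srpk2 on the opposite strand by 972 bases, and the strand setting of the counting is not given in the sources used here.

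The other H3K4 methyltransferases of the COMPASS type had smaller differences of the same sign. Kmt2b, the close paralog of Kmt2a, had a log2 fold change of 0.13, Kmt2c and Kmt2d, which act on enhancers, had 0.11 and 0.08, and Setd1a and Setd1b, which trimethylate promoters, had 0.13 and 0.19. All 6 catalytic genes of this type were thus positive, with a median of 0.13, beside 52.4% of all tested genes. Each of the 6 has a longest transcript above 4758 bases, and 63.7% of all tested genes above that length were positive. The 6 genes share the same libraries, so the count is a description. Setd1a stood at 7.71, 7.87 and 8.33 FPKM in corn oil and at 8.34, 8.997 and 8.35 FPKM in BBP libraries 1 to 3. Its groups were separated by the narrowest gap of the 9 genes without overlap, and they overlapped when normalised counts were compared in place of FPKM. Setd1b showed no separation: BBP library 1 lay below the corn oil range of 2.11 to 2.18 FPKM, at 1.94, and BBP libraries 2 and 3 lay above it, at 2.74 and 2.48. The library medians of the 6 genes relative to the corn oil mean were 0.00, 0.25 and 0.15 on the log2 scale in BBP libraries 1 to 3, and the group median was 0.06 without BBP library 2.

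Among the other SET-domain genes, Setd5, a chromatin regulator tied to intellectual disability, stood at 4.77, 4.73 and 4.85 FPKM in corn oil and 5.21, 5.25 and 5.06 FPKM in BBP. The groups did not overlap and both were narrow, and the log2 fold change was 0.14 ± 0.08 (SE, edgeR adjusted p = 0.953). Setd2, the enzyme that completes H3K36 methylation, had a log2 fold change of 0.12 with BBP library 1 (4.33 FPKM) below and BBP libraries 2 and 3 (5.22 and 5.08 FPKM) above the corn oil values. Setd3, the actin histidine methyltransferase, was the most abundant gene of its family and had a log2 fold change of 0.00, with 22.3, 23.2 and 22.6 FPKM in the controls and 24.2, 20.4 and 22.6 in the treated libraries. Its interval of 0.88-fold to 1.13-fold left little room in either direction. Setd7, which monomethylates H3K4 and many other proteins, had 0.16, Setd4 -0.14 and Setd6, which methylates the NF-kB subunit RelA, -0.07, and in none of these did the groups separate.

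The H4K20 enzymes did not move together. Kmt5a had 8.69, 9.13 and 7.73 FPKM in the controls and 7.33, 8.25 and 8.67 in the treated libraries, a log2 fold change of -0.05. Kmt5b and Kmt5c, which add the second and the third methyl group, had log2 fold changes of 0.00 and 0.17. Kmt5c was spread widely in BBP, from 3.43 FPKM in library 3 to 5.35 in library 2.

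Of the 19 Kdm genes, which include the pseudogene Kdm4dl and the antisense Kdm6bos, 13 had a log2 fold change above 0, and the median was 0.03. Leaving out corn oil library 3 gave a median of -0.01, leaving out BBP library 3 gave -0.0028 and removing a trend on transcript length gave -0.01, so its sign was not stable. Kdm4c, an H3K9 and H3K36 demethylase, stood at 4.14, 3.91 and 4.17 FPKM in corn oil and at 4.42, 4.28 and 4.97 FPKM in BBP libraries 1 to 3. All BBP values were above the corn oil values by a small margin. Its log2 fold change was 0.18 ± 0.09 (SE, edgeR adjusted p = 0.953), while its paralogs Kdm4a and Kdm4b had 0.01 and 0.06. Kdm4b, the most abundant demethylase gene, had 12.7, 11.98 and 10.4 FPKM in the controls and 11.4, 9.89 and 14.7 under BBP. In FPKM the treated libraries thus held both the lowest and the highest value. On normalised counts, relative to the corn oil mean (log2), corn oil library 3 was lowest at -0.17, with BBP library 2 at -0.13.

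Kdm6a, the X-linked H3K27 demethylase UTX, had 2.17, 2.09 and 2.21 FPKM in corn oil and 2.43, 2.29 and 2.47 FPKM in BBP. It was again separated by a small margin, with a log2 fold change of 0.18 ± 0.09 (SE, edgeR adjusted p = 0.953). Kdm6b, the inducible H3K27 demethylase, had 0.06 and overlapping groups, and its antisense transcript Kdm6bos lies within its span, so their counts are uncertain. The H3K4 demethylase genes were close to 0, at -0.08 for Kdm5a, 0.02 for Kdm5b and 0.03 for the X-linked Kdm5c. Kdm5c was the most even of the 54 genes, with a highest to lowest ratio of 1.08 over the 6 libraries.

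The flavin-dependent H3K4 demethylases Kdm1a (LSD1) and Kdm1b had log2 fold changes of -0.08 and -0.09. The lowest Kdm1a value was that of BBP library 2, at 9.20 FPKM, with 10.1 to 11.3 FPKM elsewhere. On normalised counts, relative to the corn oil mean (log2), BBP library 2 stood at -0.14, near corn oil library 1 (-0.10) and BBP library 1 (-0.09). The H3K9 demethylases Kdm3a and Kdm3b had 0.07 and 0.13, the H3K36 demethylases Kdm2a and Kdm2b 0.13 and 0.00, and Kdm7a and Kdm8 -0.03 and 0.08. Kdm4d (28 to 69 deposited counts) and its neighbouring pseudogene Kdm4dl (19 to 32 counts) were too low for a difference of 1.5-fold to be detected at this depth, and fragments of such similar copies can be split between them.

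Among the 12 Hdac genes, 2 (16.7%, beside 5.25% of all tested genes) had BBP values wholly below the corn oil values. Hdac11 (chromosome 6, 91156665 to 91174692), which also removes long-chain fatty acyl groups, stood at 45.2, 45.0 and 49.6 FPKM in corn oil and at 42.9, 34.9 and 42.9 FPKM in BBP. BBP library 2 held the lowest value by a clear step, and BBP libraries 1 and 3 were just under the corn oil range. The log2 fold change was -0.19 ± 0.09 (SE, edgeR adjusted p = 0.953), and it was -0.13 without BBP library 2.

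Hdac2 (chromosome 10, 36974544 to 37001889) stood at 19.4, 18.8 and 19.3 FPKM in corn oil and at 17.6, 16.2 and 17.3 FPKM in BBP. The corn oil values were within a narrow range and every BBP value lay below it. The log2 fold change was -0.15 ± 0.07 (SE, edgeR unadjusted p = 0.0679, adjusted p = 0.953), or 0.90-fold with a 95% interval of 0.80-fold to 1.01-fold. It ranged from -0.16 to -0.14 when each library was left out in turn.

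Hdac1, the closest paralog of Hdac2 and its partner in the Sin3, NuRD and CoREST complexes, had 0.02, with 9.58, 8.81 and 8.69 FPKM in the controls and 7.11, 10.01 and 9.83 in the treated libraries, which lay on both sides of the controls. Its processed pseudogene Hdac1-ps can share fragments with it. The remaining class I genes Hdac3, the catalytic subunit of the NCoR complex, and Hdac8 had -0.03 and 0.07. The class IIa genes, whose proteins shuttle between nucleus and cytoplasm with neuronal activity, had -0.09 for Hdac5, 0.14 for Hdac4, 0.17 for Hdac7 and 0.00 for Hdac9. Hdac4 and Hdac5 were spread widely in the treated libraries: Hdac4 had 2.81, 1.91 and 2.80 FPKM in BBP libraries 1 to 3, around a corn oil range of 2.27 to 2.35, and Hdac5 had 18.3, 12.4 and 15.5 around a corn oil range of 16.1 to 17.1. Hdac6, the tubulin deacetylase, and Hdac10, a polyamine deacetylase, had 0.02 and 0.09.

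Of the 7 sirtuin genes, 5 had a negative log2 fold change, and the family median was -0.04. That median was 0.02 without BBP library 2 and -0.11 without BBP library 3, so its sign rests on single libraries. Sirt2, whose protein is abundant in oligodendrocytes and deacetylates tubulin, was the exception in size. It had 21.7, 22.1 and 22.4 FPKM in corn oil and 23.1, 30.0 and 23.2 FPKM in BBP libraries 1 to 3, so that BBP library 2 carried nearly all of the difference. The log2 fold change was 0.24 ± 0.14 (SE, edgeR adjusted p = 0.953) and 0.05 without BBP library 2.

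The 8 oligodendrocyte markers examined beside Sirt2 were all above 0 on the log2 scale, by 0.33 in the median. This was not particular to them. The markers of striatum (median 0.53), isocortex (0.39), endothelial cells (0.19), astrocytes (0.13) and microglia (0.10) were also all above 0. Those of the remaining lists were not, and the choroid plexus markers were all below 0. The summed level of the oligodendrocyte markers was 509 to 696 FPKM in corn oil and 813, 822 and 568 FPKM in BBP libraries 1 to 3, and none was at 0. BBP libraries 1 and 2 were thus alike in these markers and unlike in Sirt2. Their part in the Sirt2 values was not tested.

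The 3 mitochondrial sirtuin genes were all negative, at -0.01 for Sirt3, the main mitochondrial deacetylase, -0.08 for Sirt4 and -0.16 for Sirt5, a desuccinylase. Sirt5 had 1.48, 1.39 and 1.41 FPKM in the controls and 1.26, 1.09 and 1.43 in the treated libraries, with BBP library 3 inside the corn oil range. In all 3 genes BBP library 2 had the lowest FPKM of the 6 libraries, although on normalised counts corn oil library 1 was lower for Sirt4. That library also had the high share of mitochondrial counts given above, whose part in these values was not tested. The nuclear sirtuins Sirt1, Sirt6 and Sirt7 had -0.04, 0.10 and -0.08, with overlapping groups.

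The families differed in how each treated library stood. Relative to the corn oil mean, on the log2 scale, the Kmt median was 0.02, 0.20 and 0.12 in BBP libraries 1 to 3 and the Setd median 0.00, 0.25 and 0.08. The Kdm median was -0.03, 0.07 and 0.14, the Hdac median 0.04, -0.04 and 0.00, and the Sirt median -0.04, -0.18 and 0.05. By these medians BBP library 1 lay near the corn oil libraries in all 5 families. Single genes there could lie further off in either direction, such as Hdac1 at -0.35 and Hdac4 at 0.28. The medians of BBP library 2 were high for the Kmt and Setd genes and low for the sirtuins. On normalised counts, BBP library 2 had the highest of the 6 values for 15 of the 54 genes and the lowest for 16, and over all 20428 tested genes it was the highest for 5090 and the lowest for 5404, which are similar shares. Within groups, the SD was larger in BBP than in corn oil for 38 of the 54 genes (70.4%), as it was for 71.0% of all tested genes.

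**Figure D4:**
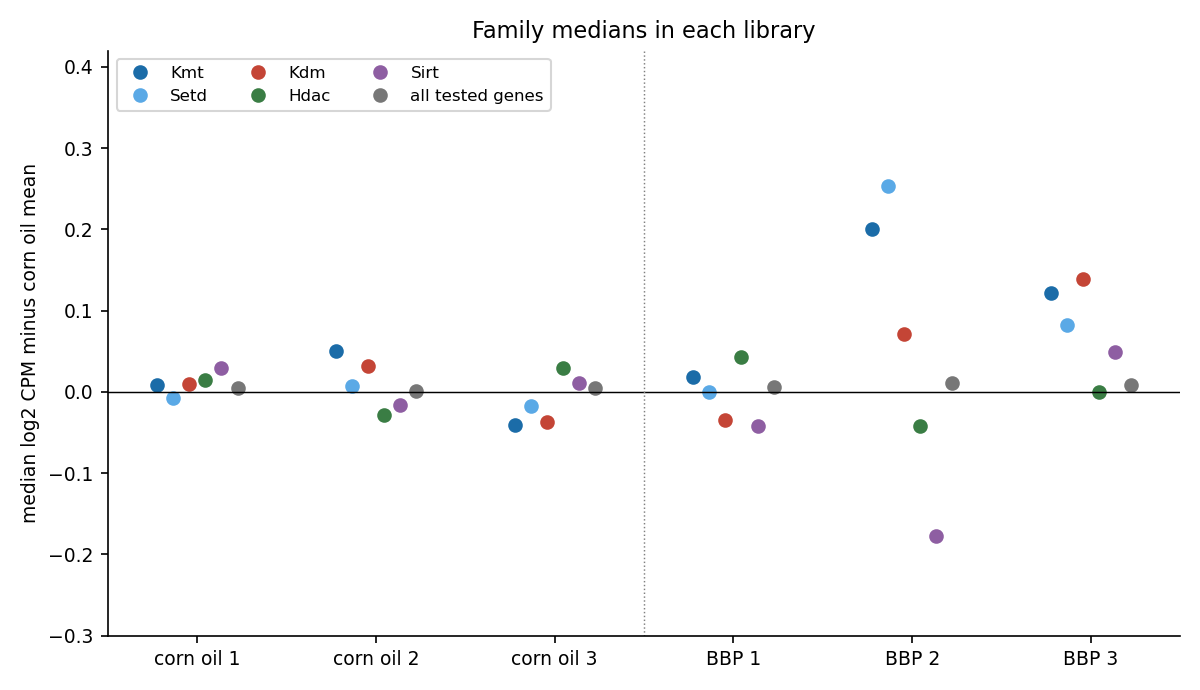
Median over the genes of each family, and over all tested genes, of log2 CPM (normalised counts scaled to library depth) minus the corn oil mean, in each library. The Kmt and Setd medians reach 0.20 and 0.25 in BBP library 2, where the Sirt median is -0.18, while BBP library 1 stays between -0.04 and 0.04.

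With BBP library 1 left out, 5 of the 54 genes were higher (Kmt2e, Kmt2a, Setd1b, Setd2 and Sirt2) and 2 lower (Hdac5 and Hdac11) at an unadjusted p under 0.05 in edgeR, which is 13.0% of them beside 7.0% of all genes in that fit, and the smallest adjusted p was 0.700. With BBP library 2 left out, only Hdac4 had an unadjusted p under 0.05 (1.85% of the 54, beside 3.43% of all genes), and the median over the 54 genes was 0.03. With BBP library 3 left out, Kmt2e and Kmt5c did (3.7%, beside 7.26% of all genes), and the median was 0.01 with 27 of 54 genes positive. Without any 1 of the corn oil libraries 0 of the 54 genes had an unadjusted p under 0.05, beside 1.86% to 2.25% of all genes. The share among the 54 genes was above that of all genes only without BBP library 1, among these 6 fits.

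Transcript length differed between the families and moved with the fold change. The longest annotated transcript had a median of 4758 bases over the 54 genes, against 2905 bases over all tested genes, from 840 bases for Kdm6bos to 19823 for Kmt2d. Across the 54 genes the log2 fold change and log2 length had a Pearson r of 0.46 and a Spearman rho of 0.37 (0.40 and 0.40 over the 51 protein-coding genes), against 0.07 and 0.13 across all tested genes with a length. Genes share libraries and are not independent, so these describe the 6 libraries only. Of the 27 genes longer than 4758 bases, 23 were above 0 on the log2 scale and their median was 0.11. Among the 27 others 13 were above 0, and the median was -0.01. Over all tested genes the same boundary gave 63.7% of longer and 49.6% of shorter genes above 0.

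When a smooth trend on length was removed in each library, 28 of the 54 genes were positive and the median was 0.01. The Kmt median then stood at 0.06 in place of 0.12 and the median of the 6 H3K4 methyltransferases at 0.08 in place of 0.13. Kmt2a had 0.14 and Kmt2e 0.25, neither with an unadjusted p under 0.05 (0.0777 and 0.0651 in edgeR), while Hdac2 had -0.16 with an unadjusted p of 0.0495. Whether length accounts for the values of single genes was not tested beyond this fit.

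**Figure D5:**
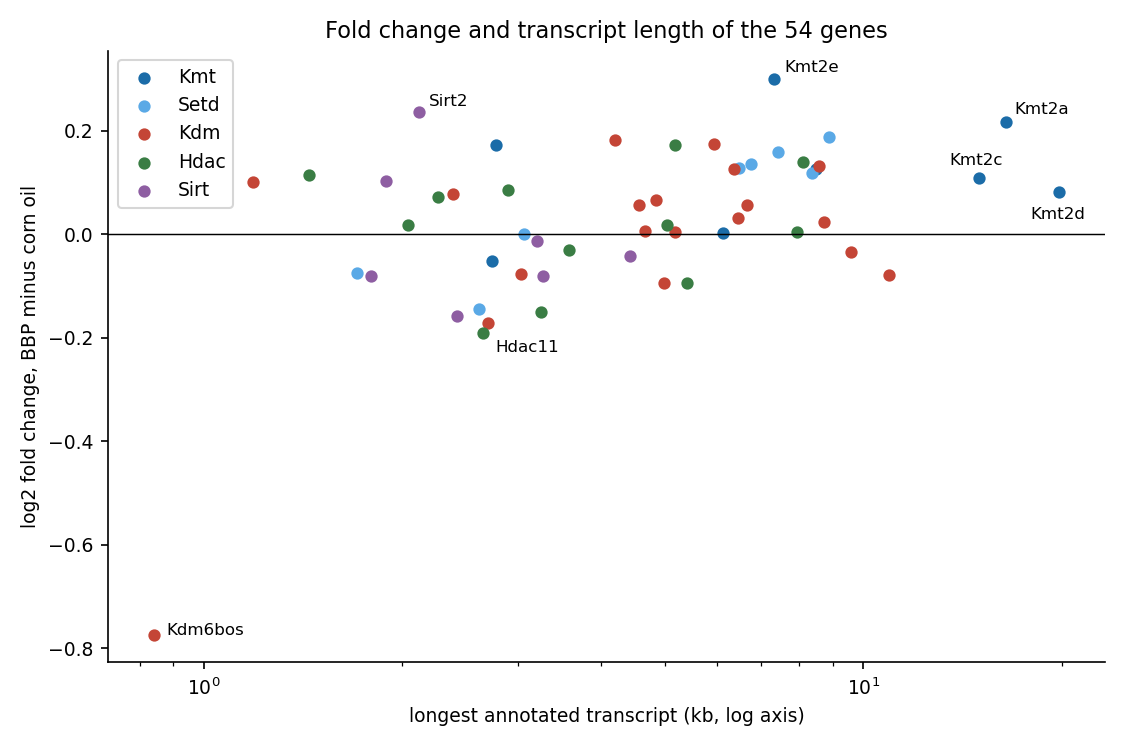
Log2 fold change (BBP minus corn oil) of the 54 genes against the length of the longest annotated transcript on a log axis, coloured by family. Of the 27 genes longer than 4758 bases, 23 lie above 0, and Kdm6bos, the shortest, lies lowest at -0.77.

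Genes that work with these enzymes were compared in the same fit, and none of them passed the test adjusted over all genes. Of 28 genes for histone and arginine methyltransferases outside the rule, counting the non-catalytic Ezh2 partners Eed and Suz12, 13 were positive with a median log2 fold change of -0.01. The lowest p among them were those of Prmt1, the main arginine methyltransferase, at 19.6 ± 0.0714 FPKM for corn oil and 16.2 ± 2.998 for BBP (SD, n = 3), and of the lysine methyltransferase gene Smyd2, at 15.6 ± 1.23 and 13.1 ± 1.59. The 13 cofactors of COMPASS and MLL complexes had 6 positive and a median of -0.05, and their difference from the enzymes was not tested. Pagr1a had the lowest p among them, at 1.31 ± 0.45 FPKM for corn oil and 0.452 ± 0.393 for BBP, and Ncoa6 the next, at 5.47 ± 0.34 and 6.42 ± 1.17.

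Of 18 genes for histone acetyltransferases and subunits of their complexes (Brpf1, Brpf3, Brd1 and Trrap), 13 were positive with a median of 0.11. In 5 of the 18 (27.8%, beside 4.4% of all tested genes) all BBP values lay above the corn oil values. The subunit gene Brpf3 was among these 5, with a lowest BBP value of 3.86 FPKM and a highest corn oil value of 3.84. The median over the list was 0.05 without BBP library 2 and 0.17 without BBP library 1. Kat6b stood at 2.29, 2.27 and 2.03 FPKM in corn oil and at 2.52, 3.20 and 2.59 in BBP (log2 fold change 0.37 ± 0.14, SE, edgeR adjusted p = 0.953), and Kat5 averaged 12.7 ± 0.45 FPKM and 14.3 ± 0.80 (SD, n = 3). By library the median over these genes was 0.03, 0.25 and 0.09 for BBP 1, 2 and 3, an order like that of the Kmt genes.

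Of 35 genes of HDAC corepressor complexes, 20 were positive with a median of 0.02. Sap30, a Sin3 complex subunit, had 5.46, 4.63 and 5.10 FPKM in the controls and 2.72, 2.61 and 4.67 under BBP, where library 3 overlapped the control values. Brms1, another Sin3-associated gene, averaged 0.977 ± 0.267 FPKM and 0.529 ± 0.261 (SD, n = 3). Of 11 other JmjC genes, 5 were positive, and the median over the 11 was -0.01. The lowest p among the 11 were those of Riox1, lower in BBP, at 5.45 ± 0.53 and 4.43 ± 0.50 FPKM, and of Phf8. Phf8, an H3K9 demethylase gene, was higher in BBP, at 2.51 ± 0.12 and 2.93 ± 0.39. Of the 15 rows for NAD supply and use, on which sirtuins depend (Nnt has 2 rows), 5 were positive with a median of -0.06, with Nnmt at 0.808 ± 0.0658 and 0.575 ± 0.261 FPKM and Nmrk1 at 1.51 ± 0.11 and 1.75 ± 0.34.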

How the data were processed

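RNA-seq of mouse hippocampus from 6 libraries, 3 corn oil and 3 BBP by the labels, was used. The submitters' processing notes list StringTie 2.1.6, UMI-tools, HISAT2 2.2.1 and cutadapt 1.9 besides edgeR, DESeq2 and the build mm10, without saying what each did. Per the file headers, the authors' gene table holds an estimated count and an FPKM value per library. FPKM is printed as the authors deposited it. The deposited estimated counts are whole numbers, and because a count of 4 was more frequent than 3 or 5 in every library, 1 count may be less than 1 fragment. The total per library was 62477604 to 68422361.

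The main test was edgeR's quasi-likelihood test (version 4.0.16, R 4.3.3) of BBP against corn oil on the estimated counts, with TMM factors, the filterByExpr filter and Benjamini-Hochberg adjustment over 20428 genes (threshold 0.05). The SE was derived from the fold change and its F statistic, and the 95% interval uses the moderated degrees of freedom. Library medians use log2 CPM (prior count 2). Transcript lengths and coordinates were compared with GENCODE M21, which held all 54 genes, 46 of them with identical ends. Of the 54 genes, 25 overlap another row of the table, 20 on the opposite strand.

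Values in every library were given for the 8 genes with the smallest p, the most abundant of each family and those whose groups did not overlap, and of each partner list the 2 genes with the smallest p were named. Other genes in the text were named after their values were seen, and the grouping by substrate and class was likewise made then. The genes and lists were chosen with earlier results of these data known. The alternatives were DESeq2 1.42.0, limma 3.58.1 on log2(FPKM + 1) or log2(FPKM + 0.1), other filters and size factors, counts divided by 4, removal of a length trend (lowess span 0.3), a replicate block and leaving out each library. The fits were tested on simulated data with known fold changes.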

Additional observations from a re-analysis of the deposited data

How the results depend on the processing

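No gene of the 54 passed an adjusted p of 0.05 in any of the alternatives run. The count at an unadjusted p under 0.05, which was 2 higher and 0 lower, was more fragile: 0 were higher in the 3 limma fits on FPKM and with the length trend removed, and 1 was lower without an FPKM filter and with the length trend removed, and 2 without a count filter. Leaving out single libraries gave 0 to 5 higher and 0 to 2 lower. The number with a positive log2 fold change was 27 to 36 across these fits and 28 of 51 in limma with an FPKM filter, where 42.5% of all genes were positive. The median over the 54 genes was 0.007 to 0.0606 without single libraries. The Setd median was then 0.0298 to 0.154, lowest without BBP library 2, and the Hdac median -0.0270 to 0.0400, lowest without BBP library 3. The median of the COMPASS cofactors was -0.0637 to 0.0217, above 0 when either the first corn oil or the first BBP library was left out, and that of the other JmjC genes -0.143 to 0.0842, highest without BBP library 1 and lowest without BBP library 3. The Kmt median was 0.069 to 0.181 (lowest without BBP library 2, highest without BBP library 1), and the medians of the Kdm and Sirt genes, the corepressor genes (-0.008 to 0.0647), the other methyltransferases (-0.0146 to 0.0138) and the NAD genes (-0.0709 to 0.0003) changed sign without single libraries. The sign of Setd3, whose log2 fold change was 0.00, turned to -0.00136 with other size factors, -0.0221, -0.0231 and -0.0221 in the 3 limma fits, -0.00803 without a filter, -0.00476 with the length trend removed and -0.00081 with a replicate block, and it was -0.0438 to 0.0278 without single libraries. Kmt5a was -0.117 to 0.0263 and Kdm4b -0.0883 to 0.146 without single libraries. The cause of these shifts was not tested.

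Same-numbered libraries did not deviate together (correlations of -0.08, 0.08 and -0.10 across genes), and not every library correlated best with its own number, so the numbers were not taken as pairs. With the replicate number as a block, 1 of the 54 genes was higher at an unadjusted p under 0.05 (Kmt2e), and 494 of all genes had such a p in either direction, against 685 without the block. On normalised counts, a scale added after seeing the data, 6 genes in place of 7 lay wholly above the corn oil values. With 3 libraries a group, 1.5-fold differences of the lowest genes were not detectable.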
